A study of Macaca mulatta with 102 samples.

Results

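In lactating rhesus macaques 66 transcripts, of the 42701 in the deposited table, had a higher mean level in milk cells and in milk fat than in mammary biopsies. The members were chosen by these measured levels: a transcript was taken when its locus spanned more than 1000 bases, its mean level was at least 5 FPKM in milk cells and in milk fat, each of these means was at least 3 times the mean in mammary biopsies, and the milk fat mean was 0.4 to 2.5 times the milk cell mean. FPKM (fragments per kilobase of exon, scaled to the number of fragments mapped) is a level per transcript length. Of 32501 transcripts with a long enough locus, 5144 passed both level limits, 73 of these were also 3 times higher in both milk fractions, and 67 lay within the limits on the ratio of fat to cells. UGP2, which makes UDP-glucose for lactose synthesis, was then left out by name, which gave the 66.

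The samples came from 6 female rhesus macaques (M1 to M6), all multiparous prime-aged mothers of a breeding colony that were nursing male infants. Every animal was milked by hand under sedation after oxytocin, at day 30 and at day 90 after birth, and milk was spun into a fat layer and a washed cell pellet. The label Cells (12 samples) covers both days of all 6 animals, and Fat (10 samples) covers day 90 of all 6 and day 30 of M1, M2, M3 and M6. Bx (6 samples) is a single needle biopsy per animal, taken at day 30 from M3, M4 and M6 and at day 90 from M1, M2 and M5, so that day and animal cannot be told apart in biopsies. The labels FatS10 (4 samples, M1, M2, M5 and M6), FatsS10 (1 sample, M4) and Skim10m (1 sample, M3) mark further day 90 samples whose fraction the labels do not explain. The study also counts 6 samples of cell-free milk at that day, which these labels may stand for, but no label says so. Each of the 34 samples was sequenced in 3 technical runs, which were averaged.

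Milk carries RNA in cells that are shed into it, which are mainly epithelial cells and leukocytes, and in fat globules. A globule buds from the apical membrane of a secretory epithelial cell and can take a crescent of its cytoplasm along. A biopsy of the gland holds the same secretory cells together with basal epithelium, stroma, vessels and fat tissue. A transcript can therefore be at higher level in both milk fractions for several reasons, and in bulk samples fewer cells of a type and less RNA per cell cannot be told apart.

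No name could be given to the members, because the name tables at hand pair gene identifiers with symbols and none of the 66 transcript identifiers was among their 24186 entries. Their functions, and the markers of leukocytes, stroma or fat tissue, were therefore not analysed here. Members are given by their position on the rheMac2 assembly. They lay in 62 separate loci, and 8 of them shared a locus with another member. Chromosome 1 held 12 members, or 18.2% of them, and 10.9% of the 5141 transcripts that passed the same span and level limits and were not left out by name. Chromosome 5 held 7 members (10.6%, against 3.5% of those transcripts) and chromosome 6 held 6. The loci were long, with a median span of 33417 bases against 17658 in those 5141 transcripts, and 14 members (21.2%, against 7.08%) spanned over 100 kilobases. In 50 of the 66 (75.8%) the mean of the Cells and Fat means was under 20 FPKM, against 64.0% of those 5141 transcripts. The median was 10.4 FPKM, against 14.4 FPKM, and the members ranged from 5.53 to 111 FPKM.

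**Figure D1:**
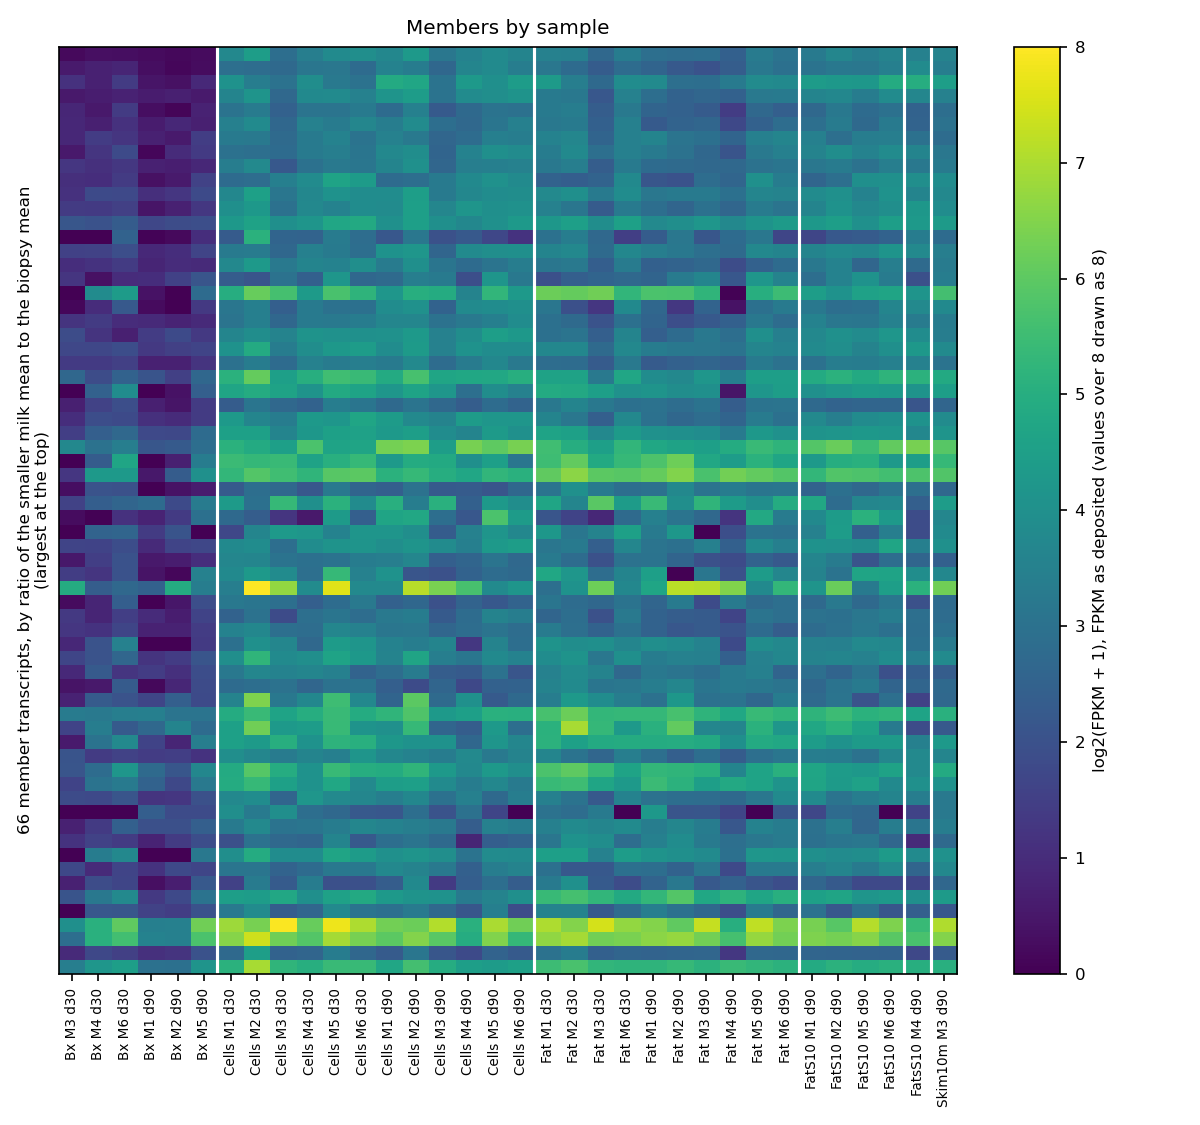
Levels of the 66 members (rows, largest ratio of milk to biopsy at the top) in the 34 samples (columns, by label, day and animal), as log2(FPKM + 1) of deposited values. Low values are dark. The 6 biopsy columns are darker than the milk columns, and those of M1, M2 and M3 are the darkest of the 6.

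The values in this paragraph chose the members and are given as a description. The FPKM of the 66 members added up to 254 ± 131 (SD, n = 6) per biopsy. Milk cells reached 1257 ± 476 (SD, n = 12) and milk fat 1158 ± 199 (SD, n = 10). The lowest milk cell sample stood at 776 FPKM and the lowest milk fat sample at 731 FPKM, both from M4 at day 90, while the highest biopsy had 437 FPKM. As a share of all FPKM of a sample the members came to 0.0260% ± 0.0149 in biopsies, 0.121% ± 0.0517 in milk cells and 0.0998% ± 0.0191 in milk fat. Samples of the labels that did not enter the rule lay in the range of the milk samples, with 1029 to 1133 FPKM in the 4 FatS10 samples, 898 FPKM in FatsS10 and 1196 FPKM in Skim10m. The highest sample of all was the day 30 milk cells of M2, at 2527 FPKM, of which 863 FPKM came from a single member on chromosome 1 that is described further on.

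**Figure D2:**
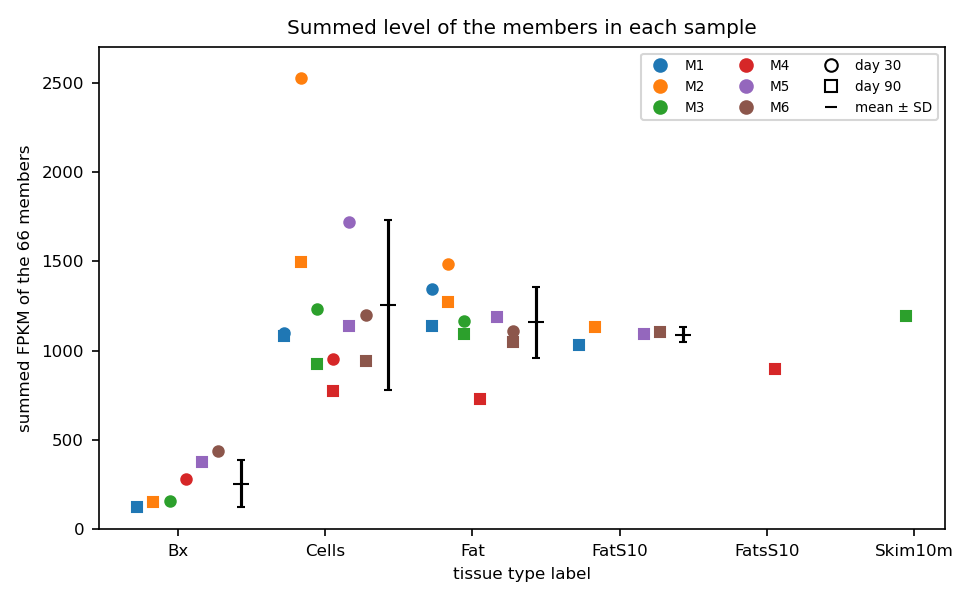
Summed FPKM of the 66 members in each sample, by label, with animals in colour, day 30 as circles, day 90 as squares, and the mean ± SD where a label has several samples. Biopsies lie between 121 and 437 FPKM, and the samples of all other labels between 731 and 2527 FPKM.

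The biopsies themselves differed by more than 3 times in the members' sum. It was 121 FPKM in M1, 154 in M2 and 156 in M3, against 281 in M4, 374 in M5 and 437 in M6. LALBA, which encodes alpha-lactalbumin, the regulatory subunit of lactose synthase and a product of secretory epithelium, moved with it, at 27654, 33064 and 32468 FPKM in M1, M2 and M3 and at 54881, 75671 and 59139 FPKM in M4, M5 and M6. NME2, a nucleoside diphosphate kinase of the lactose synthesis genes, lay at 119, 106 and 95.1 FPKM in the first 3 of these biopsies and at 209, 198 and 205 FPKM in the others. Both transcripts were thus lower in the biopsies where the members were lower. Other products of secretory epithelium, such as the caseins, were not compared over these biopsies. In the study's means, the most abundant transcript of the casein gene CSN2 was higher in biopsies than in either milk fraction, as was CSN3. LALBA and another CSN2 transcript were lower there. LALBA and NME2 thus do not stand for all products of secretory epithelium. The part of LALBA and NME2 in the ratio of milk to biopsy was not tested. The number of transcripts above 0, which ran from 28269 in M3 to 29991 in M4, did not order the biopsies in this way.

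The counts of this paragraph come from the values that chose the members and are a description, with no share over all transcripts beside them. Milk levels were averaged over an animal's days, and the fat of M4 and M5 is day 90 alone. Measured against the animal's own biopsy, 64 of the 66 members were at least 3 times higher in both milk fractions of M1. In M2 there were 62 and in M3 55, but in M4 23, in M5 44 and in M6 33. In M1, M2 and M3 all 66 members were above their own biopsy in both fractions, against 57 in M4, 64 in M5 and 64 in M6. Over all animals, 53 members were higher in both fractions in 6 of 6 animals and 13 were at least 3 times higher in both in 6 of 6. The median member was 14.6 times its own biopsy level in the milk cells of M2 and 3.08 times in those of M6. The first number in the sample titles is 2, 3 or 4, its meaning is not given by the labels, and values were also taken within each number. Number 3 holds the biopsies of M3, M4 and M5, and milk cells and fat of M3 and M4. Number 4 holds the biopsy of M6, and milk cells and fat of M5 and M6. The biopsy of M5 was thus not set against its own milk. Within number 2 (M1 and M2) 62 members reached 3 times the biopsies of that number in both fractions. Within number 3 there were 33, and within number 4, which holds 1 biopsy, 38. In the same order 66, 66 and 65 members were higher in both.

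Among the 8 members with the highest milk level, the first was ENSMMUT00000022853 (chromosome 9, 15341829 to 15355866), with a median of 96.7 FPKM in the cells (32.8 to 248), of 97.2 FPKM in the fat (31.3 to 177) and of 23.6 FPKM in biopsies (9.91 to 75.4). The biopsies of M4, M5 and M6, at 32.5, 75.4 and 65.2 FPKM, overlapped the lower milk samples of this transcript. The member on chromosome 15 from 24441775 to 24447402 overlapped as well, with a median of 78.8 FPKM in the cells (30.1 to 168), of 89.9 FPKM in the fat (48.5 to 120) and of 21.8 FPKM in biopsies (6.47 to 52.1). On chromosome 7, from 41427957 to 41457284, a member had medians of 37.7 FPKM in the cells (25.3 to 62.9) and 66.4 FPKM in the fat (51.4 to 97.4), while its biopsies ran from 0.434 FPKM in M1 to 18.9 FPKM in M6 and did not overlap either fraction.

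In biopsies the steadiest of the 8 was the member on chromosome 16 from 43858870 to 43933523. Its 6 biopsies lay between 7.42 and 10.03 FPKM, the narrowest relative spread of all members in biopsies (coefficient of variation 12.8%), the cells had a median of 31.3 FPKM (18.9 to 54.3) and the fat one of 39.1 FPKM (26.2 to 72.2). No biopsy reached a milk sample. The member on chromosome 6 from 136593035 to 136658827 had medians of 32.4 FPKM in the cells and 37.5 FPKM in the fat, with 6.74 to 21.3 FPKM in biopsies. A single milk cell sample, that of M2 at day 30, stood at 124 FPKM, with the next at 47.6 FPKM.

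The member on chromosome 1 from 131887213 to 131889953 varied most over milk samples. Its mean in milk cells was 126 FPKM but its median 33.7 FPKM, because the day 30 milk cells of M2 held 863 FPKM and the other 11 samples 9.71 to 197 FPKM. M2 and M3 also had the highest biopsies, at 29.2 FPKM each against 4.10 to 9.46 FPKM, and the highest day 90 milk fat, at 145 and 137 FPKM against 13 to 87.9 FPKM, while the day 30 milk fat of M2 had 15.9 FPKM. Its coefficient of variation over milk cell samples, 190%, was the largest of the members. It was also the member nearest to the lower limit on the ratio of fat to cells.

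Ratios to the biopsy mean are next in order, again as a description of what the rule used. The smaller milk mean was 3.0 to 40.7 times the biopsy mean, with a median of 4.17. In 18 members it was over 5 times and in 4 over 10 times. In 33 members the lowest milk cell or milk fat sample was above the highest biopsy, against 1.98% of the 5144 transcripts that passed the span and level limits. The largest ratio, 40.7, was that of the chromosome 20 transcript from 56875968 to 56959339, at 0.130 to 0.245 FPKM in the 6 biopsies, 6.36 to 21.1 FPKM in the cells and 4.48 to 10.5 FPKM in the fat. Next came the chromosome 20 transcript from 64884597 to 64903226, at a ratio of 13.4. It had 0.111 to 0.775 FPKM in biopsies, 5.44 to 13.2 FPKM in the cells and 3.0 to 8.14 FPKM in the fat, and overlapped no other transcript.

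Chromosome 4 at 155.2 Mb held a pair of members that share a locus. The longer of them (155216079 to 155337968) had a ratio of 12.97, with 0.274 to 1.65 FPKM in biopsies and 5.65 to 28.9 FPKM over milk cells and milk fat. The shorter, ENSMMUT00000028647 (155216067 to 155240214), was at higher level throughout, with 3.41 to 12.3 FPKM in biopsies, 21.1 to 84.2 FPKM in the cells and 22 to 45.4 FPKM in the fat. On chromosome 6 the member from 129285920 to 129369402 had a ratio of 12.3 and a biopsy range of 0.445 to 0.689 FPKM. The other members among the 8 largest ratios lay on chromosome 1 at 116.4 Mb (8.58), chromosome 5 at 142.5 Mb (7.53), chromosome 15 at 91.7 Mb (7.27) and chromosome 17 at 55.8 Mb (7.07). The biopsy means of these 8 were 0.185 to 1.16 FPKM, so their ratios rest on low biopsy values.

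Members just inside a limit were close to transcripts just outside it. The chromosome 6 member at 136.6 Mb had the smallest ratio to biopsies, 3.0, and the nearest transcript outside, on chromosome 15 from 104122619 to 104197693, had 2.98. For the level limit the values were 5.06 FPKM inside (chromosome 4, 31608144 to 31614672) and 4.98 FPKM outside (chromosome 18, 13860734 to 13909351). For the ratio of fat to cells they were 0.439 inside and 0.398 outside at the lower limit, and 2.01 inside (chromosome 1, 130212522 to 130219489) and 2.56 outside (chromosome 11, 6686718 to 6689648) at the upper one. The shortest member locus spanned 1283 bases (chromosome 20, 29300390 to 29301673), and a transcript of chromosome X with a span of 839 bases would have passed every other limit.

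Cufflinks divides reads between transcripts that overlap, so a member's level also depends on how its locus was divided. Of the 66 members, 54 (81.8%) overlapped at least 1 other annotated transcript, against 60.8% of transcripts that passed the span and level limits, and 12 overlapped none. When the FPKM of each member were summed with those of the transcripts that overlap it directly, an alternative chosen after seeing the data, the sum met the rule for 24 of the 54 and not for 30. The median share of a member in such a sum was 32.4% in biopsies, 58.6% in milk cells and 57.2% in milk fat, and in 44 of the 54 the share was larger in both milk fractions than in biopsies. The chromosome 20 member at 56.9 Mb and its 6 overlapping transcripts summed to 7.89 FPKM in biopsies, 18 in milk cells and 14 in milk fat. That is a ratio of 1.78, where the member alone had 40.7. The chromosome 7 member at 41.4 Mb summed to 188 FPKM in biopsies, 121 in milk cells and 130 in milk fat, a ratio of 0.645. Overlap was taken from locus coordinates with strand not known, so transcripts that share no exon can enter a sum. Whether division of reads or a separate gene at the locus gave these drops was not tested.

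In other members the sum stayed above the limit. The members without overlaps included those on chromosome 20 at 64.9 Mb, chromosome 1 at 131.9 Mb, chromosome 6 at 136.6 Mb and chromosome 4 at 84.1 Mb. The pair on chromosome 4 at 155.2 Mb gave a shared sum of 8.08 FPKM in biopsies, 64.6 in milk cells and 42.7 in milk fat, a ratio of 5.29, against 12.97 and 4.41 for the longer and shorter member alone. The chromosome 6 member at 129.3 Mb kept a ratio of 11.1 and the chromosome 9 member at 15.3 Mb a ratio of 3.06. Of the sums, 47 of 66 had a ratio of at least 2 and 8 had a ratio under 1.5. One member, on chromosome 16 from 35388524 to 35407009, overlapped the NME2 transcript that was left out by name, and made up 2.92% of the summed FPKM there in biopsies.

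**Figure D3:**
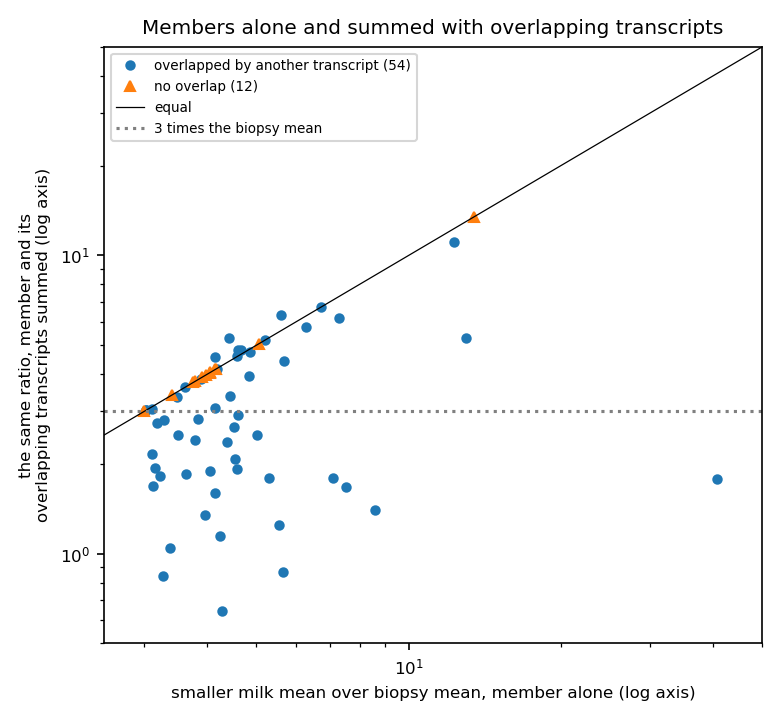
Ratio of the smaller milk mean to the biopsy mean for each member alone (horizontal, log axis) and for the member summed with the transcripts that overlap it (vertical, log axis). The 12 members without overlaps lie on the line of equality, 30 overlapped members lie below the dotted line at 3, and the member with the largest ratio, 40.7, drops to 1.78.

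The comparison of day 90 with day 30 asks whether transcript levels changed as lactation went on. The rule averages both days and did not use their difference, but a high level at either day could carry a transcript past its limits. In milk cells 3 members rose and 0 fell by limma (6 samples against 6, adjusted p under 0.05), where 3.55% of the 13815 transcripts tested rose and 1.59% fell. At an unadjusted p under 0.05 there were 33 members, or 50%, against 29.4% of all transcripts. The 3 were the shorter member of the pair on chromosome 4 at 155.2 Mb (log2 difference 1.12, SE 0.28, adjusted p = 0.0422), the chromosome 15 member from 62599852 to 62607355 (0.68, SE 0.17, adjusted p = 0.0459) and the chromosome 17 member from 55729088 to 55938920 (0.65, SE 0.17, adjusted p = 0.0481). No member was called without M1, M2, M4, M5 or M6, and none in FPKM as deposited, whereas 9 were called without M3.

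Samples of an animal deviated together, and with animal as a replicate block the same comparison gave 10 members that rose and 21 that fell, where 11.6% and 13.4% of all transcripts tested did. The members thus leaned to lower values at day 90, with a median log2 difference of -0.17 against -0.04 for all transcripts tested. With day 30 milk alone 61 of the 66 met the rule, and with day 90 milk alone 37 did. This lean and the number of members that fell are therefore not independent of the choice. The change of largest size was that of ENSMMUT00000001100 (chromosome 4, 84072600 to 84074019), which had 5.67, 4.08, 1.37, 0.455, 19.7 and 4.40 FPKM in the day 30 milk cells of M1 to M6 and 24.4, 26.8, 6.45, 3.48, 52.7 and 19.9 FPKM at day 90. It was higher at day 90 in 6 of 6 animals, while the ranges of the days overlapped because animals differed (log2 difference 1.87, limma with the block adjusted p = 0.00272, and adjusted p = 0.0801 without it). In milk fat it was higher at day 90 in 4 of 4 animals (3.29, 2.02, 0.850 and 5.80 FPKM in M1, M2, M3 and M6 at day 30, and 10.3, 7.52, 5.52 and 9.0 FPKM at day 90), which did not pass the test. This member met the rule with day 90 milk alone and not with day 30 milk alone. Its rise in milk cells and in milk fat is therefore not independent of the choice.

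The shorter member at 155.2 Mb on chromosome 4 had 33.4, 28.6, 21.8, 51.8, 23.7 and 24.5 FPKM in the day 30 milk cells of M1 to M6 and 78.8, 84.2, 21.1, 81.7, 63.2 and 81.0 FPKM at day 90. The other 5 animals lay at 63.2 FPKM or more at day 90, and M3 stayed near its day 30 level. The longer member of the pair went along in the blocked comparison (log2 difference 0.83, limma with the block adjusted p = 0.0171), and the loci of the pair overlap. M3 was also the lowest at day 90 for the chromosome 17 member at 55.7 Mb, with 5.13 FPKM against 13.1 to 17.6 in the other animals, and for the chromosome 15 member at 62.6 Mb, with 4.74 FPKM against 13.2 to 15.4.

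Members of high level were among those that fell with the block. The chromosome 9 member at 15.3 Mb had 112, 81.5, 248, 69.7, 219 and 128 FPKM in day 30 milk cells of M1 to M6 and 77.4, 73.1, 135, 32.8, 126 and 75.9 FPKM at day 90. It was lower in 6 of 6 animals (log2 difference -0.63, limma with the block adjusted p = 0.0154), though the days overlapped across animals. ENSMMUT00000047604 (chromosome 1, 11900040 to 11916801) went from 30.7, 70.1, 49.3, 19.5, 51.5 and 36.2 FPKM to 17.2, 31.5, 29.4, 10.9, 37.1 and 18.5 FPKM (log2 difference -0.74, limma with the block adjusted p = 0.0121). The members on chromosome 15 at 24.4 Mb, chromosome 7 at 41.4 Mb and chromosome 6 at 136.6 Mb also fell with the block, by 0.63, 0.50 and 0.68 on the log2 scale, and were lower in 6 of 6 animals. With day 30 milk alone the members on chromosomes 9, 15 and 6 met the rule, and with day 90 milk alone they did not. Their falls are therefore not independent of the choice. The members on chromosomes 1 and 7 met it with either day alone. By direction over animals in scaled values, 18 members (27.3%) were lower in 6 of 6 and 7 (10.6%) higher in 6 of 6, against 17.1% and 10.03% of all transcripts tested.

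None of the 66 members, and 0% of the 12609 transcripts tested, was called between days in milk fat (6 samples at day 90 against 4 at day 30, limma), with or without the block, and 5 members (7.58%, against 5.24% of all) had an unadjusted p under 0.05. In 5 members (7.58%) milk fat was lower at day 90 in 4 of 4 animals and in 4 (6.06%) it was higher in 4 of 4, against 8.89% and 12.8% of all transcripts. Between the 3 day 90 and 3 day 30 biopsies 0 of 60 members tested and 0% of 13762 transcripts were called, and 3 members (5%, against 3.2% of all) had an unadjusted p under 0.05. At day 90 the members' summed level was lower in milk cells of 6 of 6 animals, at 0.592 to 0.984 times day 30. In milk fat it was lower in 4 of 4 animals, at 0.848 to 0.947 times. Most members met the rule with day 30 milk alone, so these sums are not independent of the choice.

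Whether the day differences of milk cells and milk fat themselves differ was tested as an interaction, also chosen after seeing the data. With animal as a block 7 members were called, or 10.6%, against 9.6% of 13521 transcripts, and without the block 0 members and 0% were called, with 6 members (9.09%) at an unadjusted p under 0.05, below the 15.6% of all transcripts. The share of members called thus lay near the background. In 4 of the 7 the day difference was lower in milk fat than in milk cells. These were the shorter member on chromosome 4 at 155.2 Mb (interaction -1.21 on the log2 scale, SE 0.30, limma adjusted p = 0.0329), both members on chromosome 17 at 55.7 and 55.8 Mb (-0.70 and -0.83) and the chromosome 20 member at 64.9 Mb (-0.69). In the other 3 it was higher in milk fat: the chromosome 16 member at 35.4 Mb (1.0, SE 0.25, limma adjusted p = 0.0324), the chromosome 15 member at 24.4 Mb (0.73) and the chromosome 20 member at 29.3 Mb (0.71). These 3 met the rule with day 30 milk alone and not with day 90 milk alone. Their interactions are therefore not independent of the choice. The chromosome 16 member had 15.8 to 34.8 FPKM in milk cells at day 30 and 5.37 to 18 at day 90, and its milk fat had 22.2 to 34.4 FPKM at day 30 and 14.7 to 29.97 at day 90.

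**Figure D4:**
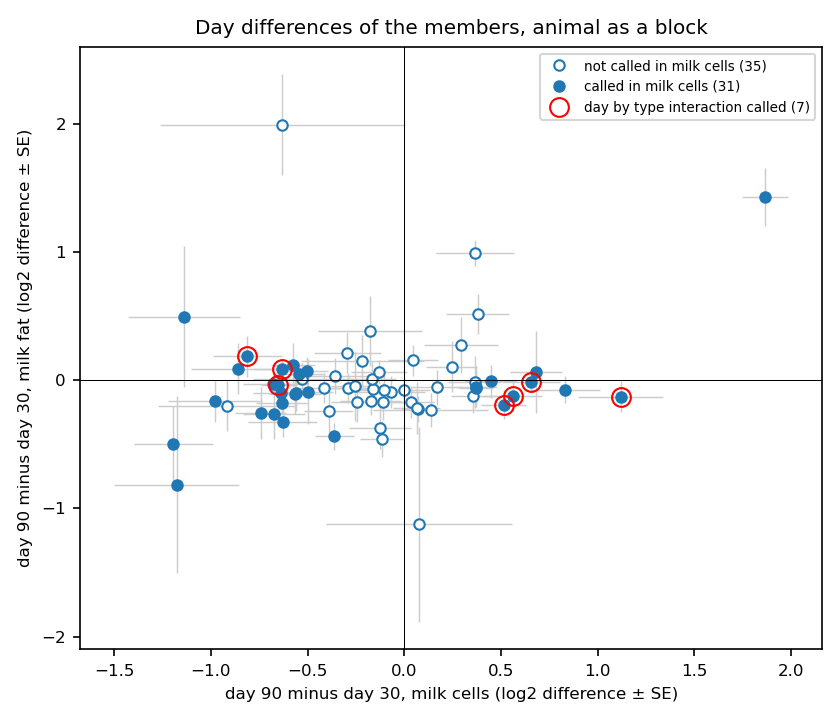
Day 90 minus day 30 for each of the 66 members in milk cells (horizontal) and milk fat (vertical), as log2 differences ± SE with animal as a block. Filled points are the 31 members called in milk cells, 0 were called in milk fat, red rings mark the 7 called in the interaction, and the point at the upper right is the chromosome 4 member at 84.1 Mb, at 1.87 in milk cells and 1.43 in milk fat.

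FatS10 samples were not used to choose the members, but the biopsies, milk fat and milk cells they are compared with were, so the counts that follow are not independent of the choice. Against biopsies all 66 members had a higher mean log2 level in FatS10, and 59 were called higher by limma (4 samples against 6), 45 of them over 3-fold, where 21.1% and 1.48% of 13791 transcripts were. None was called lower, where 19.4% were, and with the block 59 were higher, against 20.1% of all transcripts. The log2 differences ran from 0.57 to 3.39 with a median of 1.89, while the median of all transcripts was 0.03 in scaled values and 0.27 in FPKM as deposited. In 51 members every FatS10 sample was above every biopsy, against 31.8% of the 5144 transcripts that passed the span and level limits. The same held for FatsS10 in 48 members (53.7% of those transcripts) and for Skim10m in 64 members (40.1%).

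The largest difference was that of the longer member on chromosome 4 at 155.2 Mb, with 20.2, 18.1, 17.7 and 29.4 FPKM in the FatS10 samples of M1, M2, M5 and M6 (log2 difference 3.39, SE 0.22). FatsS10 and Skim10m had 30.8 and 21.3 FPKM of it, and no biopsy had over 1.65 FPKM. The chromosome 4 member at 84.1 Mb had 13.02, 19.9, 33.3 and 18.7 FPKM in FatS10 against 0.0231 to 6.76 FPKM in biopsies (log2 difference 3.06, SE 0.51), but 2.63 FPKM in FatsS10 of M4, the animal in which it was also lowest in milk cells. For the chromosome 20 member at 56.9 Mb the values were 8.86 to 11.8 FPKM (3.05, SE 0.10), and summed over its whole chain of overlapping transcripts the difference was -0.068. The chromosome 7 member at 41.4 Mb had 37.9 to 56.0 FPKM in FatS10 (log2 difference 2.59, SE 0.67), and its summed locus was called lower (-0.79). The 7 members that were not called included the chromosome 1 member at 131.9 Mb (0.75, SE 0.73, adjusted p = 0.432). Of the 12 members without overlaps 10 were called, with a median of 1.58.

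Between FatS10 and day 90 milk fat the members went both ways: 8 were higher (12.1%) and 5 lower (7.58%), against 5.02% and 7.94% of 12716 transcripts tested by limma (4 samples against 6). With the block 17 were higher and 14 lower, against 11.8% and 16.5%, with FatsS10 and Skim10m added 18 and 10 were, against 13.4% and 17.1%, and in FPKM as deposited 8 were higher and 0 lower. None was called without M1, M2 or M6, and 7 were called without M3. The chromosome 8 member from 17533017 to 17636123, with 11.2, 15.9, 12.3 and 14.5 FPKM in FatS10, and 5.16 to 9.04 FPKM in day 90 milk fat, was among the higher (log2 difference 0.77, SE 0.15, adjusted p = 0.0233). Higher as well was the chromosome X member from 122270484 to 122285320, with 28.2 to 35.9 FPKM in FatS10 and 10.03 to 21.6 FPKM in day 90 milk fat (0.83, SE 0.20, adjusted p = 0.0318). The chromosome 1 member at 130.2 Mb was lower, with 16.9 to 24.7 FPKM in FatS10 and 25.04 to 57.5 FPKM in day 90 milk fat (-0.86, SE 0.20, adjusted p = 0.0297).

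Against day 90 milk cells 0 of the 66 members were called in either direction (limma), with or without the block, where 0.052% of 13462 transcripts were higher and 0.186% lower, and 7 members (10.6%, below the 14.1% of all transcripts) had an unadjusted p under 0.05. Their log2 differences ran from -0.73 to 1.20, and a p that misses the threshold does not show that the levels were alike.

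**Figure D5:**
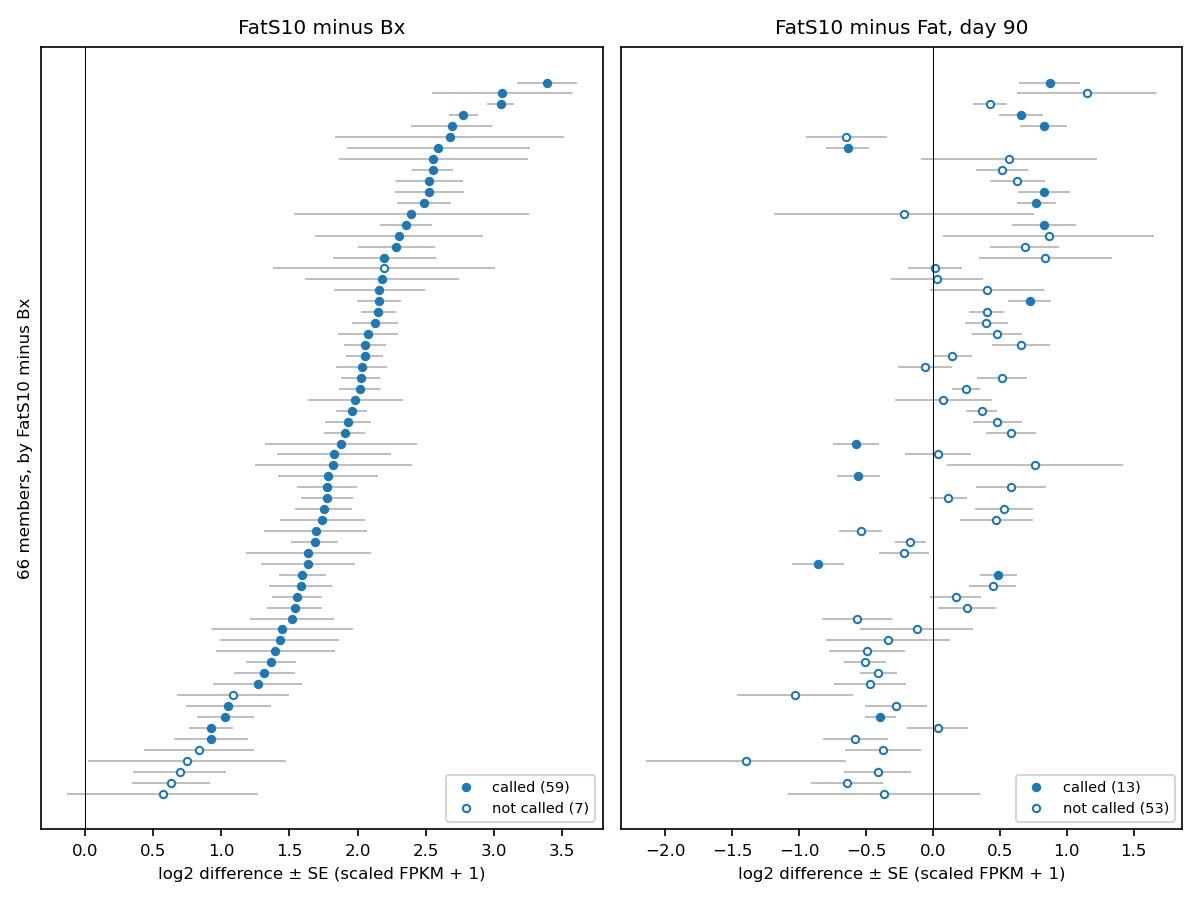
Log2 differences ± SE of the 66 members, in the order of the left panel, for FatS10 minus Bx (left) and FatS10 minus day 90 Fat (right). All lie above 0 on the left, where 59 are called, and 13 are called on the right, 8 above 0 and 5 below.

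The members did not move as a block among themselves. The median correlation between pairs of members was 0.15 over the 12 milk cell samples, 0.17 over the 10 milk fat samples and 0.22 over the 6 biopsies, against 0.08, 0.04 and 0.01 for transcripts that passed the span and level limits, as a description of samples that share animals and runs. Relative spread was largest in biopsies, with a median coefficient of variation of 54.1%, against 35.5% in milk cells and 34.6% in milk fat. Between technical runs of a milk sample it was 8.30%. Values under 0.1 FPKM, which an estimate that divides reads can give, made up 6.57% of the members' biopsy values. They made up 0.126% of the milk cell values and 0.758% of the milk fat values. The rule asks for low biopsy means, so neither contrast is independent of the choice, and comparable transcripts are not given beside them. The 22 members with a higher mean in milk fat than in milk cells had a median span of 9673 bases and 0 over 100 kilobases. The 44 with a lower mean had longer loci, with a median of 60722 bases, and included the 14 over 100 kilobases. The ratio of fat to cells entered the rule. Other transcripts that passed the span and level limits were not split in this way, so the difference may not be particular to the members.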

How the data were processed

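RNA from 34 samples of 6 animals was sequenced by the authors in 3 technical runs each. They prepared poly(A) libraries, trimmed the single reads, aligned these with TopHat and Bowtie (build rheMac2) and deposited the FPKM that Cufflinks estimated per Ensembl transcript. FPKM give no read counts, so the depth of a sample is unknown and no counting interval was computed. Of the deposited columns 102 were used, and 6 columns of per-sample values whose names match no described sample were not used. No pair of columns was identical. Samples of a group come from separate animals, except that milk cells and milk fat hold both days of an animal.

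Technical runs were averaged. Levels are FPKM as deposited. For tests FPKM were divided by median-of-ratios factors over 21792 transcripts above 0 in every sample, 1 was added, and limma 3.58.1 in R 4.3.3 was fitted to log2 values with a trend in the prior variance, to transcripts whose mean over the samples compared was 1 FPKM or more. Tests were two-sided with Benjamini-Hochberg adjustment over all transcripts tested, called at an adjusted p under 0.05. Fold changes on this scale understate the change of low transcripts. On simulated data with 200 transcripts changed 3-fold, the unblocked fit recovered 178 in the milk cell day comparison (13815 transcripts), 180 in milk fat (12609), 51 in biopsies (13762) and 167 in FatS10 against Bx (13791). The changed transcripts were drawn from those of higher mean level, and the noise held no animal effect. These recoveries may therefore not hold for members of low level. Pairing by animal comes from the labels, and same-animal samples deviated together in every comparison (lowest correlation 0.203). Python 3.11.15 with pandas 2.3.3 and matplotlib 3.10.9 made the other values.

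The members and the lists were chosen with earlier results of these data known. Transcripts named in the text are the 8 with the highest milk level, the 8 with the largest ratio to biopsies, those nearest to each limit, and up to 5 called per direction in each comparison. The chromosome 4, 9 and 1 members whose day values are printed, and those called only with the block or in the interaction, were picked from these after their values were seen. Gene lists by symbol could not be applied, for want of names.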

Additional observations from a re-analysis of the deposited data

Results flagged for a closer look

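Day differences of 7 members differed between milk fat and milk cells by the interaction in limma with animal as a block (fat minus cells, log2). These 7 are 10.6% of members, against 9.6% of all transcripts, and without the block 0 were called. They were 0.73 for chromosome 15 at 24.4 Mb, 1.0 for chromosome 16 at 35.4 Mb, -0.70 for chromosome 17 at 55.7 Mb, -0.83 for chromosome 17 at 55.8 Mb, 0.71 for chromosome 20 at 29.3 Mb, -0.69 for chromosome 20 at 64.9 Mb and -1.21 for the shorter member on chromosome 4 at 155.2 Mb. The members with values above 0 met the rule with day 30 milk alone and not with day 90 milk alone. Those values are therefore not independent of the choice.

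A single sample stood far from the others of its group (Dixon's criterion) in 17 of 162 groups of values, where chance gives about 1 in 20. In milk cells at day 30 these were M2 for chromosome 1 at 131.9 Mb (863 FPKM, next 197), M2 for chromosome 6 at 136.6 Mb (124 FPKM, next 41.9) and M5 for chromosome 4 at 84.1 Mb (19.7 FPKM, next 5.67). In milk cells at day 90 M2 was high for chromosome 6 at 136.6 Mb (47.6 FPKM) and chromosome X at 122.3 Mb (49.5 FPKM). M3 was low there for the shorter chromosome 4 member at 155.2 Mb (21.1 FPKM), chromosome 17 at 55.7 Mb (5.13 FPKM) and chromosome 15 at 62.6 Mb (4.74 FPKM). In milk fat at day 30 M3 was high for chromosome 1 at 131.9 Mb (74.7 FPKM), M2 was high for chromosome 7 at 41.4 Mb (97.4 FPKM) and M3 was low for chromosome X at 122.3 Mb (8.48 FPKM). In milk fat at day 90 M4 was low for chromosome 16 at 35.4 Mb (14.7 FPKM) and M5 was high for chromosome 4 at 84.1 Mb (27.3 FPKM). Among biopsies M1 was low for chromosome 5 at 56.1 Mb (0.915 FPKM) and M5 was high for chromosome 4 at 84.1 Mb (6.76 FPKM). Among FatS10 samples M6 was high for chromosome 5 at 56.1 Mb (25 FPKM) and M2 was low for chromosome 15 at 91.7 Mb (6.52 FPKM).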

How the results depend on the processing

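The set depended on how levels were averaged. The rule kept 66 transcripts, and 130 with geometric means, 154 with day 30 milk alone, 40 with day 90 milk alone, 40 with median-of-ratios scaling (39 of them among the 66), 496 at 2-fold and 18 at 5-fold. Leaving out an animal gave 53 to 135, the extremes without M1 and without M4, and 114 without M6. With FPKM summed over chains of overlapping loci 42 summed loci met the rule, and 34 of the 66 members lay in such loci. Of the 66, 36 met it when summed with direct overlaps alone, an alternative chosen after seeing the data. In all, 42 members stayed with every animal left out in turn.

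The 20 highest transcripts by the Bx mean, by the Cells mean and by the Fat mean were also left out of the total. The members' share was then 0.120% in biopsies, 0.476% in milk cells, 0.363% in milk fat and 0.394% in FatS10. Over long loci alone it was 0.124% in milk fat and 0.112% in FatS10.

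Day differences in milk cells gave 3 calls, and 0 in FPKM as deposited and without the filter on low FPKM, 5 with summed loci, 31 with the replicate block and 0 to 9 with an animal left out. FatS10 against biopsies gave 59 calls, 35 among transcripts of at least 5 FPKM, where fewer members were tested, and 46 to 59 with an animal left out. FatS10 against milk fat gave 13 calls, 8 in FPKM as deposited, 1 without the filter, 31 with the replicate block, 28 with FatsS10 and Skim10m added and 0 to 12 with an animal left out. The interaction gave 7 calls with the block and 0 without it. The chromosome 20 member at 56.9 Mb changed direction against biopsies, to -0.068, in summed loci, as the overlapping transcripts enter that sum. Of the 66 summed loci 4 lay below biopsies, and that of chromosome 7 at 41.4 Mb was called lower (-0.79, limma adjusted p = 0.00848). The replicate block changed no other count of calls. No paired analysis was possible for biopsy days because each animal gave 1 biopsy. The cause of the other shifts was not tested. Comparisons with 0 calls kept 0 in all alternatives run.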
